A study of Mus musculus with 12 samples.

Results

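Skin controls bacteria in part by secreting small proteins that kill them, and the levels of 10 mouse genes for such proteins were followed here in day 3 wounds. They were the beta-defensins Defb1, Defb3, Defb4, Defb6 and Defb14, the S100 protein S100a7a, the C-type lectin Reg3g, the whey acidic protein family members Slpi and Wfdc12, and the lysozyme Lyz1. The genes were taken by symbol from the deposited table, which held 29956 named genes, and all 10 were found. All 10 also passed the filter on low counts that left 18218 genes for testing.

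Each library came from wounded back skin of a diabetic B6.BKS(D)-Leprdb/db mouse, with 4 mice per group. All groups therefore lack a working leptin receptor and non-diabetic skin was not analysed here; the age and sex of the mice were not given in the sources used here. Wounds received A. faecalis, a Gram-negative bacterium, or S. aureus, a Gram-positive bacterium and common skin pathogen, each in phosphate-buffered saline. Vehicle wounds received phosphate-buffered saline with 10% glycerol. The label names glycerol only for the vehicle, so a difference from vehicle cannot be told apart from an effect of glycerol. The libraries held 38.4 to 71.3 M (mega) estimated counts after removal of ribosomal RNA. In the bulk RNA of a wound, fewer cells of a type and less RNA per cell cannot be told apart. The vehicle library 3 stood apart: its 11 adipocyte markers summed to 12747 CPM (counts per M of scaled library size), against 2474 to 3461 CPM in the other vehicle libraries, and its 14 neutrophil markers summed to 914 CPM, the lowest of the 12 libraries. For some of the 10 genes, values against vehicle are also given without it. Values of other genes and of marker lists are given with all 12 libraries only. Keratinocytes, the cells of the epidermis, were present in every group, since their 10 basal markers summed to 1604 to 1984 CPM with A. faecalis, 1623 to 3120 CPM with S. aureus and 2069 to 3063 CPM with vehicle.

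Beta-defensins are short cationic peptides held together by disulphide bonds. They damage bacterial membranes, and several also attract cells that carry the chemokine receptor Ccr6. Some are made steadily by epithelia, while others are switched on in keratinocytes by injury, bacterial products and cytokines such as interleukin 17A, interleukin 22 and the interleukin 1 family. Reg3g binds peptidoglycan, the wall polymer of Gram-positive bacteria, lysozyme cuts that polymer, S100a7a is a calcium-binding protein of inflamed epidermis, and the whey acidic protein family combines protease inhibition with antibacterial activity.

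All 5 defensin genes lie on mouse chromosome 8. In RefSeq's gene order, Defb14, Defb4 and Defb6 were neighbours, and Defb46 and Defb5 lay between Defb6 and Defb3. Defb3 and Defb6 are close relatives: their promoters, taken as 250 bases before to 50 bases after the start, were 75.6% identical in a global alignment, and their transcripts 61.9%. They are printed because the ratio of their counts is followed later. Capitals mark bases that were not matched by the same base in the relative. Defb3 is chr8:19293111-19293410 and Defb6 is chr8:19225228-19225527, both on the plus strand of RefSeq's GRCm38.p6, read 5′ to 3′.

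Defb3: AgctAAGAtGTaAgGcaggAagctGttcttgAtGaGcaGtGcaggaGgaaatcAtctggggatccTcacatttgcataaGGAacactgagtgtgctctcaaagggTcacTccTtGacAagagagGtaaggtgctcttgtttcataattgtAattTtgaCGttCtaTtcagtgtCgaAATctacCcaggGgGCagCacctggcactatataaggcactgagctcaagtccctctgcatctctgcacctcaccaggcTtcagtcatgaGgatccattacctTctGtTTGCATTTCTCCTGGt

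Defb6: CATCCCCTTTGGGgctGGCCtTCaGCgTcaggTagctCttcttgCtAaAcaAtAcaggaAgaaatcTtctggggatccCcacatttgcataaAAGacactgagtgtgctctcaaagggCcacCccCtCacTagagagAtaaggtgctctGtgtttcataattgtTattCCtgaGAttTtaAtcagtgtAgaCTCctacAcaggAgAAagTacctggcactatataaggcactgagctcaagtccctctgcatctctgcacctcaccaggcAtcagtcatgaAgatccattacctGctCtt

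Lyz1 and Lyz2, also neighbours, lie on chromosome 10. Their promoters were 82.5% identical and their transcripts 92%, and they are printed to show how alike the pair with the most shared transcript sequence is. Capitals again mark the bases not matched in the relative. Lyz1 is chr10:117292819-117293118 and Lyz2 is chr10:117282223-117282522, both on the minus strand of GRCm38.p6.

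Lyz1: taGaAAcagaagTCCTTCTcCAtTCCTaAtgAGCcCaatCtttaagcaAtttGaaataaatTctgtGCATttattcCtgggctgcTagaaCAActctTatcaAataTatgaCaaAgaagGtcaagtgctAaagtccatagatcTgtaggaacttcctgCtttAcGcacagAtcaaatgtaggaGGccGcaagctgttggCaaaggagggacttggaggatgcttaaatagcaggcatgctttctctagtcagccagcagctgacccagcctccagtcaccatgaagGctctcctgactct

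Lyz2: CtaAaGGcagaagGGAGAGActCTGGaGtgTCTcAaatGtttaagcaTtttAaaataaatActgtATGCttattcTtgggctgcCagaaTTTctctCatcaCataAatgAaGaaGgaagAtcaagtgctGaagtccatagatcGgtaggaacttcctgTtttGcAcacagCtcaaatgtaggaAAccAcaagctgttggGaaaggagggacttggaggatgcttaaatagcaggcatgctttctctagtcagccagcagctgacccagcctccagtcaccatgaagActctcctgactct

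The Reg3g promoter is shown for the position of its NF-kB motif match, which is in capitals. It is chr6:78468825-78469124 on the minus strand of GRCm38.p6.

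Reg3g: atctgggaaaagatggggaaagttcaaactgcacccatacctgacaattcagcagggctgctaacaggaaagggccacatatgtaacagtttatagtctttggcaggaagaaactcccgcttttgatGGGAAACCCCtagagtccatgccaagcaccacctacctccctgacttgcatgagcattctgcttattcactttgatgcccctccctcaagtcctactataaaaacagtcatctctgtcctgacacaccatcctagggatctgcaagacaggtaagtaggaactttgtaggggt

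RefSeq promoters were at hand for 7 of the 10 genes; Defb1, Defb4 and Defb14 were not among them. Motifs were searched on both strands of each 300-base window. The NF-kB motif was found in Reg3g, starting 123 bases before the start, and in Defb6, 180 bases before it, and 4.51% of all 32851 promoters held it. The STAT motif TTCNNNGAA was found in S100a7a, 169 bases before the start, and in 8.3% of all promoters. The C/EBP motif TTGCNNAA was found in Defb3, Defb6, Slpi, Lyz1 and Wfdc12, and in 10.8% of all promoters. The AP-1 motif TGANTCA matched none of the 7, against 7.81% of all promoters. No 2 matches of different motifs overlapped, and a match describes letters only.

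Across the 3 groups, the defensins and Reg3g were highest with S. aureus and lowest with A. faecalis, with vehicle between. By group means this order held for 9 of the 10 genes, Lyz1 being the exception, and for 21.7% of all genes tested; for Slpi the A. faecalis and vehicle means were almost equal. Only for Defb4 among the 10 did every A. faecalis library lie below, and every S. aureus library above, every vehicle library, a pattern of 0.313% of genes tested. With A. faecalis against S. aureus, 6 of the 10 genes were lower and none higher by edgeR's quasi-likelihood F test (called at a Benjamini-Hochberg adjusted p under 0.05, the adjustment covering every tested gene), against 7.62% of genes tested that were called lower. These were Defb1, Defb3, Defb4, Defb14, S100a7a and Reg3g, and for the same 6 genes the 2 groups did not overlap, as for 11.8% of genes tested in that direction. The median log2 fold change of the 10 was -1.41, against 0.02 over all genes tested. With S. aureus against vehicle, Defb4 and Reg3g were called higher and none lower, 2 of 10 against 3.87% of genes tested; the groups did not overlap for 3 higher genes (Defb3, Defb4 and Reg3g; 7.56% of genes tested) and 1 lower gene (Lyz1; 7.57%). The median was 0.85, against -0.04 over all genes tested. DESeq2 called 7 of the 10 there, 6 higher and Lyz1 lower, and 15.8% of genes tested. With A. faecalis against vehicle, edgeR called none of the 10, and 0.011% of genes tested in either direction. Without vehicle library 3, edgeR called 6, 2 and 0 of the 10 genes in these 3 comparisons, against 18.8%, 5.29% and 0.0163% of genes tested in either direction. The A. faecalis and the S. aureus comparison with vehicle share the vehicle libraries. The 10 genes and the other gene lists were chosen with earlier results of these data known. The shares of all genes tested are therefore given as description and do not test the 10 as a set.

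**Figure D1:**
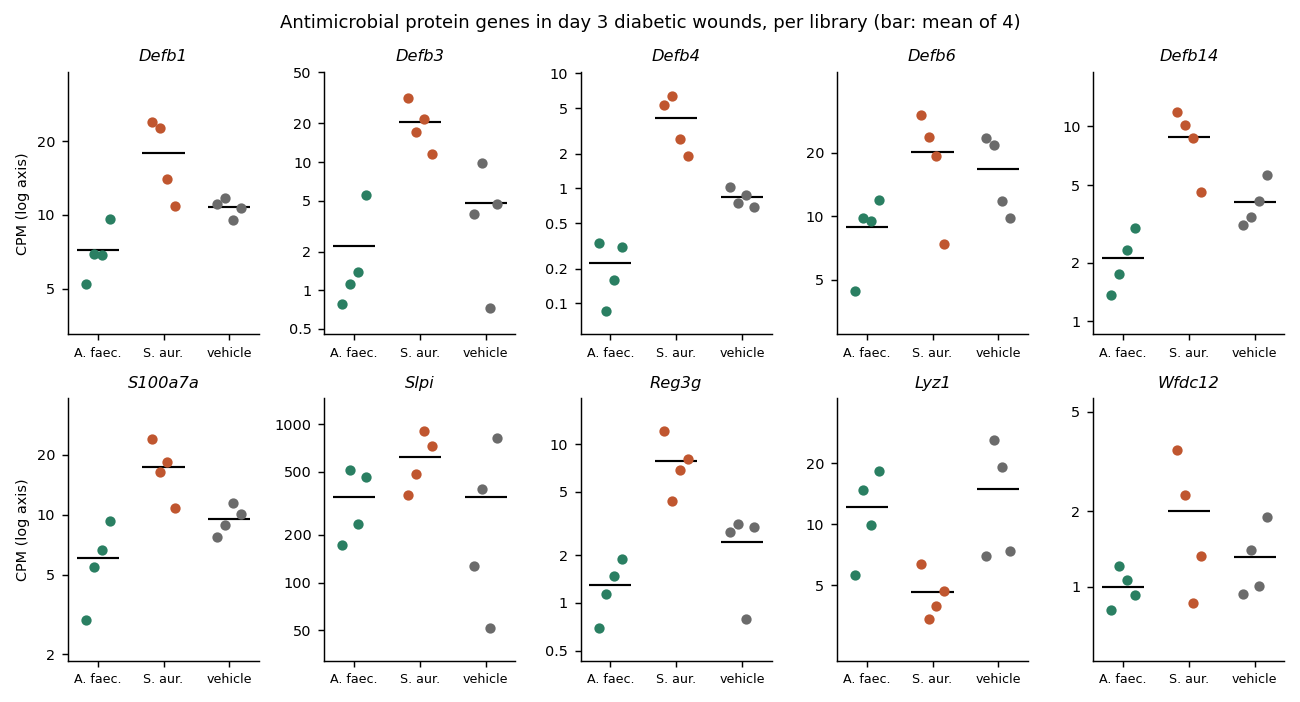
Level of each of the 10 genes in CPM (log axis) in 4 libraries treated with A. faecalis, 4 with S. aureus and 4 with vehicle; each point is a library and each bar a group mean. The S. aureus points of Defb1, Defb3, Defb4, Defb14, S100a7a and Reg3g lie above every A. faecalis point, and for Lyz1 they lie below every vehicle point.

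Defb4, the mouse counterpart of the inducible human defensin DEFB4A, gave the largest differences of the 10. Its level was 0.338, 0.0861, 0.158 and 0.308 CPM with A. faecalis, against 5.28, 6.43, 2.69 and 1.92 CPM in S. aureus wounds and 1.02, 0.747, 0.883 and 0.692 CPM in vehicle wounds. The 3 groups were fully separate. It is a weak gene: the raw estimated counts were 20.2, 6, 9.8 and 13.1 with A. faecalis, 202.2, 372.3, 105.9 and 100.7 with S. aureus, and 59.2, 38.9, 55.6 and 37.9 with vehicle. With A. faecalis it was 18.7-fold lower than with S. aureus (log2 fold change -4.22, SE 0.48, adjusted p = 0.000795). With S. aureus it was 4.86-fold higher than with vehicle (log2 2.28, SE 0.42, adjusted p = 0.0139). Both calls remained in each of the 12 fits that left out 1 library, and that against vehicle was lost without vehicle library 3 and S. aureus library 2 together (log2 2.01, adjusted p = 0.0506). It was also lost when the counts of Defb3, Defb4, Defb5 and Defb6, most of them from Defb3 and Defb6, were summed (log2 1.0, adjusted p = 0.145), whereas the sum was lower with A. faecalis than with S. aureus (log2 -1.98, adjusted p = 0.0116). Set against vehicle, its log2 fold change with A. faecalis was -1.94 (SE 0.47, adjusted p = 0.371), while DESeq2 called it lower (adjusted p = 0.0111).

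Defb14, the counterpart of human DEFB103 and a ligand of Ccr6, had 1.37, 1.74, 2.33 and 3.01 CPM with A. faecalis, against 11.9, 10.1, 8.76 and 4.60 CPM in S. aureus wounds and 3.11, 3.41, 4.15 and 5.65 CPM in vehicle wounds. Every A. faecalis library lay below every vehicle library, and the lowest S. aureus library lay within the vehicle range. With A. faecalis the gene was 4.20-fold lower than with S. aureus (log2 -2.07, SE 0.32, adjusted p = 0.00283), in all 12 fits that left out 1 library. Its log2 fold change with S. aureus against vehicle was 1.11 (SE 0.31, adjusted p = 0.0534), and that with A. faecalis against vehicle was -0.96 (SE 0.32, adjusted p = 0.547).

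Defb3, an inducible epithelial defensin of the mouse, had 0.778, 1.12, 1.39 and 5.55 CPM with A. faecalis, against 31.4, 17.2, 21.7 and 11.6 CPM in S. aureus wounds and 3.94, 9.77, 0.726 and 4.74 CPM in vehicle wounds. The S. aureus libraries were above all others, while A. faecalis and vehicle overlapped. With A. faecalis it was 9.47-fold lower than with S. aureus (log2 -3.24, SE 0.76, adjusted p = 0.0173). This call was lost without A. faecalis library 2 (adjusted p = 0.0546) or library 3 (0.0569), and without library 4, the highest of its group, the log2 fold change was -4.22. With S. aureus against vehicle its log2 fold change was 2.10 (SE 0.72, adjusted p = 0.0894), and without vehicle library 3 it was 1.75 (adjusted p = 0.12). The value with A. faecalis against vehicle was -1.15 (SE 0.72, adjusted p = 0.711), and -1.51 without vehicle library 3.

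Defb6, the relative of Defb3 printed with it and described in mouse muscle as well as in epithelia, was not called by edgeR in any comparison with all 12 libraries. Its level was 4.41, 9.82, 9.50 and 11.9 CPM with A. faecalis, 30.1, 23.7, 19.4 and 7.43 CPM in S. aureus wounds, and 23.5, 21.8, 11.8 and 9.80 CPM in vehicle wounds. All 3 groups overlapped. Its log2 fold change was -1.18 (SE 0.43, adjusted p = 0.0954) with A. faecalis against S. aureus, 0.27 (SE 0.42, adjusted p = 0.731) with S. aureus against vehicle, and -0.91 (SE 0.43, adjusted p = 0.652) with A. faecalis against vehicle. DESeq2 called it lower with A. faecalis than with S. aureus (adjusted p = 0.028), as did edgeR without S. aureus library 4 (log2 -1.45, adjusted p = 0.0336). The ratio of Defb3 to Defb6 counts within a library was 0.178, 0.114, 0.146 and 0.466 with A. faecalis, 1.04, 0.725, 1.12 and 1.56 with S. aureus, and 0.168, 0.449, 0.0616 and 0.484 with vehicle. The S. aureus ratios were above all the others. The mean log2 ratio was 2.30 higher with S. aureus than with vehicle, by a two-sided exact permutation test p = 0.0286, the smallest that 4 against 4 libraries allow, and 0.0571 after adjustment over 6 such tests; without vehicle library 3 the difference was 1.69. With A. faecalis it was lower by a log2 difference of -2.48 than with S. aureus (exact permutation p = 0.0286, adjusted 0.0571), and its difference from vehicle was -0.18 (exact permutation p = 0.8). The ratio was chosen after its values were seen, and the adjustment does not cover that choice.

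Defb1, the defensin that epithelia make steadily, moved least among the called defensins. It had 5.21, 6.95, 6.86 and 9.65 CPM with A. faecalis, 23.9, 22.5, 14.0 and 10.8 CPM in S. aureus wounds, and 11.1, 11.7, 9.51 and 10.7 CPM in vehicle wounds. The A. faecalis and S. aureus libraries did not overlap. With A. faecalis it was 2.49-fold lower than with S. aureus (log2 -1.32, SE 0.25, adjusted p = 0.0066). Its log2 fold change with S. aureus against vehicle was 0.73 (SE 0.25, adjusted p = 0.0863), and that with A. faecalis against vehicle was -0.58 (SE 0.25, adjusted p = 0.626).

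S100a7a, a mouse relative of human psoriasin, lies between S100a6 and S100a8 on chromosome 3. It had 2.97, 5.50, 6.68 and 9.30 CPM with A. faecalis, against 23.9, 16.3, 18.4 and 10.8 CPM in S. aureus wounds and 7.72, 8.89, 11.5 and 10.1 CPM in vehicle wounds. The treated groups did not overlap each other, and each overlapped vehicle. With A. faecalis it was 2.85-fold lower than with S. aureus (log2 -1.51, SE 0.31, adjusted p = 0.0102). Its log2 fold changes against vehicle were -0.65 with A. faecalis (SE 0.31, adjusted p = 0.652) and 0.86 with S. aureus (SE 0.31, adjusted p = 0.102).

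Reg3g, the lectin that kills Gram-positive bacteria, had 0.693, 1.13, 1.47 and 1.90 CPM with A. faecalis, 12.1, 4.35, 6.91 and 8.05 CPM in S. aureus wounds, and 2.78, 3.12, 0.789 and 2.99 CPM in vehicle wounds. The S. aureus libraries were above all others, and A. faecalis overlapped vehicle only through vehicle library 3, which had 50.2 counts against 159.8, 162.9 and 164.5 in the other vehicle libraries. With A. faecalis the gene was 6.07-fold lower than with S. aureus (log2 -2.60, SE 0.46, adjusted p = 0.00475), in all 12 fits that left out 1 library. With S. aureus it was 3.25-fold higher than with vehicle (log2 1.70, SE 0.44, adjusted p = 0.0415). The call against vehicle held in 4 of those 12 fits, with adjusted p-values of 0.0388 to 0.0921: it was lost without A. faecalis library 2 or 3, vehicle library 1 or 2, or any of the 4 S. aureus libraries. Without vehicle library 3 the log2 fold change was 1.42 (adjusted p = 0.0421). Its value with A. faecalis against vehicle was -0.90 (SE 0.44, adjusted p = 0.654), and -1.19 without vehicle library 3.

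Slpi, secretory leukocyte protease inhibitor, blocks neutrophil elastase and cathepsin G and is made by keratinocytes and by neutrophils. It had the highest level of the 10 per transcript length in every group, and its CPM was 174, 513, 233 and 462 with A. faecalis, 359, 484, 907 and 730 with S. aureus, and 128, 389, 51.5 and 814 with vehicle. The vehicle libraries alone covered nearly the whole range of the study, and all groups overlapped. Its log2 fold change was -0.84 (SE 0.68, adjusted p = 0.453) with A. faecalis against S. aureus, 0.84 (SE 0.68, adjusted p = 0.458) with S. aureus against vehicle and -0.00052 (SE 0.68, adjusted p = 1) with A. faecalis against vehicle. Without vehicle library 3, the value with S. aureus against vehicle was 0.50 and that with A. faecalis against vehicle was -0.35. The vehicle libraries with the lowest and the highest Slpi were also those with the lowest and the highest sum of 14 neutrophil markers, 914 CPM in library 3 and 9966 CPM in library 4. Among the S. aureus libraries, library 3 had the highest Slpi and the highest neutrophil sum, 16916 CPM. Other libraries did not keep this order. S. aureus library 2 had a higher neutrophil sum (13136 CPM) but less Slpi than S. aureus library 4 (12919 CPM). S. aureus library 1 (10661 CPM) had less Slpi than vehicle library 4. The part of neutrophil RNA in the Slpi level was not tested.

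Wfdc12, a related whey acidic protein with antibacterial activity that lies next to Wfdc5 on chromosome 2, had 0.811, 1.21, 1.06 and 0.925 CPM with A. faecalis, 3.53, 2.31, 0.864 and 1.33 CPM in S. aureus wounds, and 0.937, 1.40, 1.01 and 1.89 CPM in vehicle wounds. Its raw counts were 38.6 to 84.2 with A. faecalis, 34.2 to 134.8 with S. aureus and 54.4 to 103.6 with vehicle. All groups overlapped. Its log2 fold change was -1.0 (SE 0.39, adjusted p = 0.112) with A. faecalis against S. aureus, 0.62 (SE 0.38, adjusted p = 0.327) with S. aureus against vehicle and -0.38 (SE 0.39, adjusted p = 0.811) with A. faecalis against vehicle. Its neighbour Wfdc5 was lower with A. faecalis, at 2.74 ± 0.861 CPM, than with S. aureus, at 7.14 ± 3.71 CPM (SD, n = 4 each; log2 -1.39, SE 0.35; edgeR adjusted p = 0.0248).

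Lyz1, known as the lysozyme of intestinal Paneth cells, had fold changes opposite in sign to those of the other 9 genes in both comparisons with S. aureus. It had 5.63, 14.8, 9.92 and 18.3 CPM with A. faecalis, 6.40, 3.40, 3.96 and 4.69 CPM in S. aureus wounds, and 6.97, 26.1, 19.2 and 7.36 CPM in vehicle wounds. Every S. aureus library lay below every vehicle library, whereas A. faecalis overlapped both other groups. Its log2 fold change with S. aureus against vehicle was -1.69 (SE 0.47, adjusted p = 0.0517), which 3 of 12 fits without 1 library called and DESeq2 called (adjusted p = 0.00335); without vehicle library 3 it was -1.53 (adjusted p = 0.096). Set against S. aureus, its value with A. faecalis was 1.40 (SE 0.47, adjusted p = 0.0709), and with A. faecalis against vehicle -0.30 (SE 0.45, adjusted p = 0.885). Without vehicle library 3 the latter was -0.14. Its neighbour Lyz2, the lysozyme of macrophages and neutrophils, had 65152 to 248448 counts per library, and Lyz1 made up a small share of the lysozyme counts: 0.407 ± 0.112% with A. faecalis, 0.274 ± 0.0767% with S. aureus and 0.727 ± 0.308% with vehicle (SD, n = 4 each). Every S. aureus share lay below every vehicle share. The mean log2 ratio of Lyz1 to Lyz2 was lower with S. aureus than with vehicle by a log2 difference of -1.36 (two-sided exact permutation p = 0.0286, adjusted over the 6 tests 0.0571), and by -1.11 without vehicle library 3. Against vehicle the difference with A. faecalis was -0.79 (exact permutation p = 0.0571, adjusted 0.0857), and against S. aureus it was 0.57 (exact permutation p = 0.143, adjusted 0.171). This ratio too was chosen after its values were seen, and the adjustment does not cover that choice. An exact permutation p of 0.0286 is the smallest that 4 against 4 libraries allow, and follows from groups that do not overlap. Of the 31-base words in Lyz1 transcripts, 34.2% also occurred in Lyz2, so the division of reads between them by the authors' program makes the Lyz1 value uncertain; with the counts of both genes summed, nearly all of them from Lyz2, the log2 fold change was -0.24 (adjusted p = 0.622) with S. aureus against vehicle, 0.76 (adjusted p = 0.0955) with A. faecalis against S. aureus and 0.52 (adjusted p = 0.681) with A. faecalis against vehicle.

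**Figure D2:**
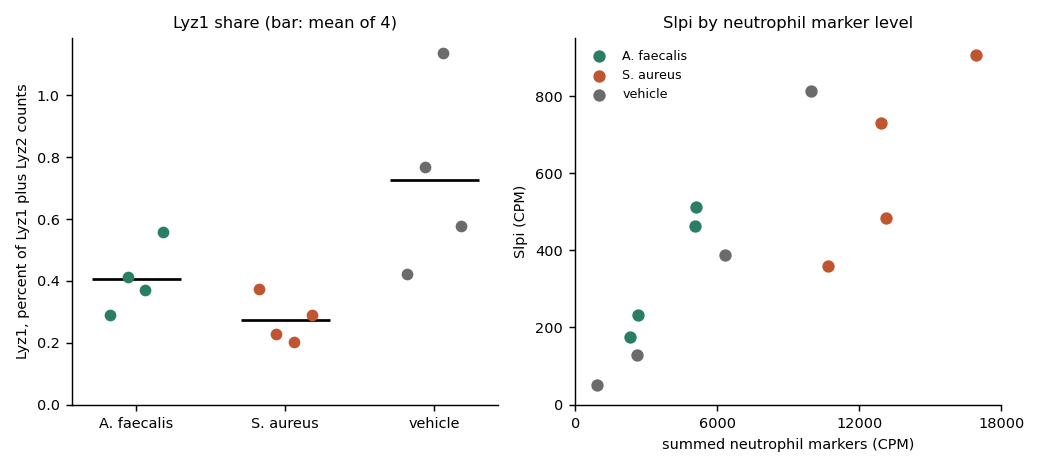
Left, the share of Lyz1 in the summed Lyz1 and Lyz2 counts (percent) in each library, with A. faecalis, S. aureus and vehicle from left to right and bars at group means. Right, the Slpi level (CPM) of each library against its summed level of 14 neutrophil markers (CPM). The S. aureus shares lie below every vehicle share, and the vehicle libraries span Slpi levels of 51.5 to 814 CPM.

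**Figure D3:**
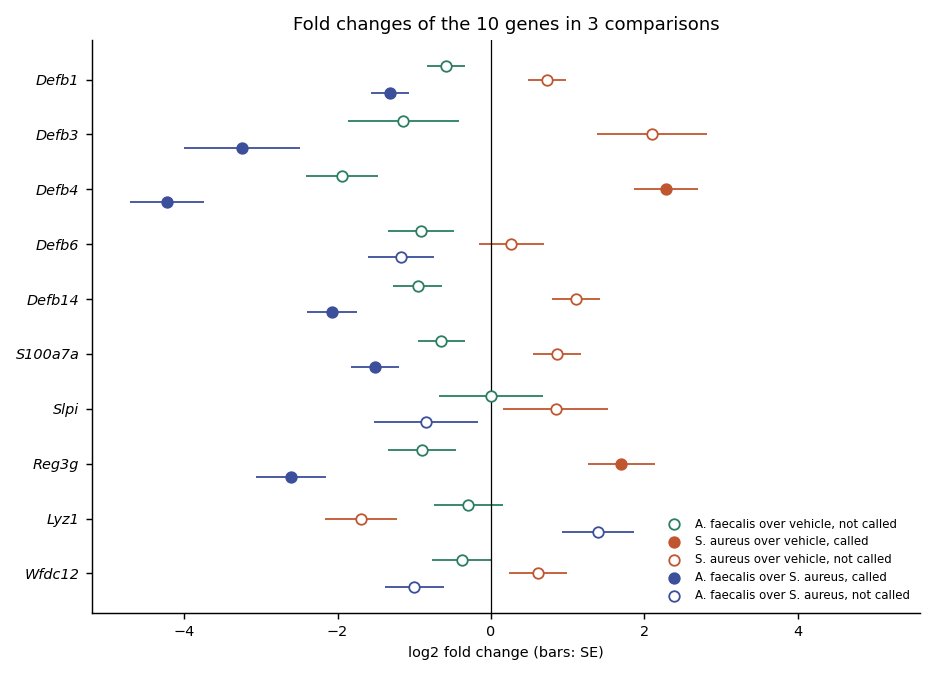
Fitted log2 fold changes of the 10 genes in 3 comparisons, with bars of 1 SE; filled points had an edgeR adjusted p under 0.05. For A. faecalis over S. aureus 6 points are filled, all below 0; for S. aureus over vehicle those of Defb4 (2.28) and Reg3g (1.70) are filled, and none is for A. faecalis over vehicle.

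The A. faecalis comparison with vehicle gave the fewest edgeR calls of the 3 comparisons. With S. aureus against vehicle the median log2 fold change of the 10 was 0.85. With A. faecalis against vehicle all 10 fitted log2 fold changes were below 0, with a median of -0.77 against -0.03 over all genes tested. By edgeR none was called. At an unadjusted p under 0.05, Defb1, Defb4 and Defb14 were lower, 3 of 10 against 4.5% of genes tested; DESeq2 called 1 gene, Defb4 as it did 0.439% of genes tested in that direction, and limma-voom none. The groups did not overlap for Defb4 and Defb14, 2 of 10 against 2.56% of genes tested in that direction. Activated and basal keratinocyte markers had medians below 0 in the same comparison: the median log2 fold change was -1.0 for 10 activated and -0.71 for 10 basal markers. EdgeR called none of these, 8 activated and 6 basal markers were lower at an unadjusted p under 0.05, DESeq2 called 1 of each list lower, and limma-voom none. Low medians were not particular to these lists: 11 adipocyte markers had -0.83 and 14 differentiated keratinocyte markers -0.45, all of them below 0. Of the cell type lists, only monocyte and macrophage markers (0.21) and lymphocyte markers (0.12) had medians above 0. Scaled to the basal keratinocyte markers instead of to all genes, the median of all genes was shifted to 0.47, and Slpi (0.42), Lyz1 (0.12) and Wfdc12 (0.09) then had log2 fold changes above 0, whereas Defb4 had -1.41 (adjusted p = 0.136). The part of keratinocyte number in these values was not tested.

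**Figure D4:**
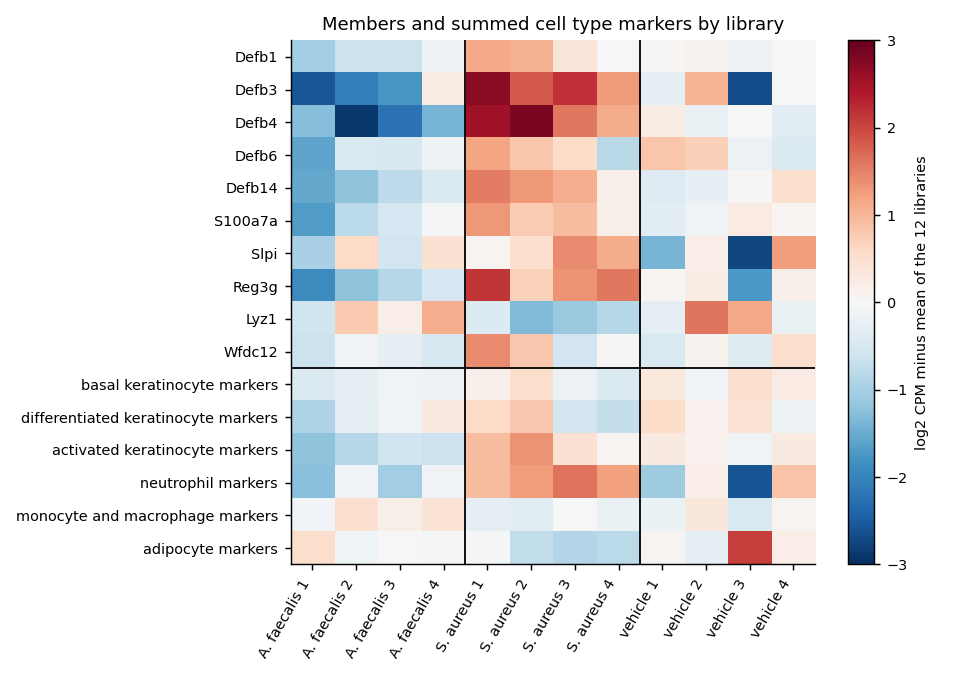
Log2 CPM of the 10 genes and of summed cell type markers in each library, minus the mean of the 12 libraries (colour); libraries are columns, ordered A. faecalis, S. aureus, vehicle. The defensins are red in most S. aureus columns, and vehicle library 3 stands out by high adipocyte markers and low neutrophil markers, Slpi, Defb3 and Reg3g.

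Markers of other cell types moved with these differences. Between A. faecalis and S. aureus, 9 of 14 neutrophil markers and 9 of 10 activated keratinocyte markers were lower with A. faecalis and none higher, among them Ly6g, a surface protein of mouse neutrophils, at 2.95 ± 1.79 against 55.2 ± 14.6 CPM, and Gjb2, a gap junction protein of activated keratinocytes, at 65.3 ± 12.2 against 241.1 ± 82.0 CPM (SD, n = 4 each). In that comparison edgeR called 7.62% of genes tested lower and 5.06% higher. With S. aureus against vehicle it called 3.87% higher and 2.97% lower. The neutrophil sum was 2314 to 5112 CPM with A. faecalis, 10661 to 16916 CPM with S. aureus and 914 to 9966 CPM with vehicle. The activated keratinocyte sum was 913 to 1395 CPM with A. faecalis, 2225 to 5314 CPM with S. aureus and 1924 to 2523 CPM with vehicle. None of the 14 neutrophil and none of the 10 activated keratinocyte markers was at 0 in all libraries of a group. Of 10 basal keratinocyte markers edgeR and limma-voom called none with A. faecalis against S. aureus (2 lower and 1 higher at an unadjusted edgeR p under 0.05, and the same numbers called by DESeq2). At that unadjusted threshold 15.1% of genes tested were lower and 13% higher, and DESeq2 called 11.3% lower and 7.73% higher. With all libraries scaled to the basal keratinocyte markers, 5 of the 6 genes lower with A. faecalis than with S. aureus were still called, Defb4 with a log2 fold change of -3.80, and Defb3 was not (-2.98, adjusted p = 0.0973), relative to a shift of all genes by 0.28; 1.54% of genes tested were called lower there. In that scaling Defb1, Defb4, Defb14 and S100a7a were called higher with S. aureus than with vehicle, and Reg3g was not (adjusted p = 0.073), relative to a shift of 0.21; 2.25% of genes tested were called higher. Endothelial markers moved too: of 8, Flt1 and Emcn were lower with A. faecalis than with S. aureus and none higher, and these and Pecam1 were higher with S. aureus than with vehicle and none lower. The endothelial sum was 1035 to 1483 CPM with A. faecalis, 1557 to 1743 CPM with S. aureus and 963 to 1381 CPM with vehicle. Of 11 adipocyte markers, 1 was called lower with S. aureus than with vehicle (10 at an unadjusted p under 0.05) and none was called with A. faecalis against S. aureus, by edgeR; all 11 had log2 fold changes above 0 there, none at an unadjusted p under 0.05. At that unadjusted threshold 14.8% of genes tested were lower with S. aureus than with vehicle. The adipocyte sum was 2776 to 4354 CPM with A. faecalis, 1640 to 2940 CPM with S. aureus and 2474 to 12747 CPM with vehicle. The highest vehicle sum was that of library 3. The part of neutrophils, of keratinocyte activation and of these other cells in the differences was not tested.

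Levels of different genes can be compared only per length of transcript, here CPM per kilobase of the longest coding transcript of the reference annotation. The annotated length was 275 bases for Defb3, 323 for Defb6, 204 for Defb14 and 872 for Defb1, and the order depends on these lengths. They were not corrected for the size of the sequenced fragments. Whether each annotated transcript is complete was not checked. With S. aureus, Slpi stood first at 708.0 ± 280.3, followed by Defb3 at 74.5 ± 30.5, Defb6 at 62.4 ± 29.6 and Defb14 at 43.3 ± 15.2 CPM per kilobase (SD, n = 4 each). Neighbours among these 3 defensins did not differ beyond their spread. Defb1 (20.4 ± 7.35), S100a7a (13.6 ± 4.23), Reg3g (10.2 ± 4.18) and Defb4 (8.98 ± 4.68) came next, then Lyz1 (3.65 ± 1.03) and Wfdc12 (2.59 ± 1.52). With A. faecalis the order began with Slpi (394.6 ± 190.9) and Defb6 (27.6 ± 9.88) and ended with Wfdc12 (1.29 ± 0.22) and Defb4 (0.491 ± 0.265). Vehicle wounds had Slpi (394.7 ± 392.9) and Defb6 (51.8 ± 21.4) on top and Defb4 (1.84 ± 0.327) and Wfdc12 (1.69 ± 0.567) at the bottom. Defb3, near the top with S. aureus, had 8.04 ± 8.15 with A. faecalis and 17.4 ± 13.6 CPM per kilobase with vehicle, below Defb6 and Defb14 in both. Before division by length, Defb1 stood above Defb14 with S. aureus, at means of 17.8 and 8.84 CPM.

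Close paralogs of the 10 genes were nearly silent, apart from Lyz2 and Wfdc5. Defb7, Defb8, Defb9, Defb10 and Defb11 had 0 counts in all libraries, Defb5 at most 1 count, Defb2 at most 3, Reg3b at most 2 and Reg3a at most 9.8. The relative of S100a7a listed under 9130204L05Rik had 0 to 18.1 counts. Shared 31-base words made up 9.91% of those in Defb4 (all with Defb8), 8.32% in S100a7a (mostly with Zfp36) and 14.4% in Wfdc12 (mostly with A730032A03Rik). They made up 1.63% in Defb3 and 0.675% in Reg3g, and Defb1, Defb6, Defb14 and Slpi had none. With Reg3g and Reg3b summed, the log2 fold change with S. aureus against vehicle remained 1.70. Reads from these shared stretches could have been divided between genes, which makes the values of Lyz1, Wfdc12, Defb4 and S100a7a uncertain.

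The genes with the most similar patterns over the 12 libraries were found by the root mean square difference of centred log2 CPM among 13885 genes, as a description. For Defb4 the nearest were Rptn, Lce3a and Lce3e, with differences of 0.45, 0.54 and 0.54 against a median gene's 1.73. For Defb14 they were Trex2 (0.22), Epn3 (0.25) and Klk9 (0.26) against 0.96, and for Defb3 Uox (0.46), Psors1c2 (0.47) and Sprr2i (0.51) against 1.82. Defb1 was nearest to Gsdma and Sdr9c7 (both 0.16) and Cdsn (0.18) against 0.66, and Defb6 to Fgfbp1 (0.31), Pglyrp3 (0.32) and Grhl3 (0.34) against 0.82. S100a7a was nearest to Rnf39 (0.23), Crct1 (0.26) and Cpa4 (0.26) against 0.80, and Reg3g to Psors1c2 (0.40), Pglyrp4 (0.45) and Sprr2d (0.45) against 1.27. Slpi was nearest to Cxcl3 (0.23), Spatc1 (0.24) and Samsn1 (0.25) against 1.19. Wfdc12 was nearest to Nfasc (0.37), Padi3 (0.38) and Glt1d1 (0.38) against 0.65. Psors1c2 was among the 3 nearest of both Defb3 and Reg3g.

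The cytokines and receptors known to induce such proteins differed between the groups as well. Of 38 in the list, 37 were tested; 16 were lower and 2 higher with A. faecalis than with S. aureus, 8 were higher and 2 lower with S. aureus than with vehicle, and none was called with A. faecalis against vehicle by edgeR (7 lower and none higher at an unadjusted p under 0.05, 3 lower by DESeq2, none by limma-voom). Over all genes tested the shares were 7.62% lower and 5.06% higher, 3.87% higher and 2.97% lower, and 0.011%. With A. faecalis against vehicle, 4.5% of genes tested were lower at an unadjusted p under 0.05, and DESeq2 called 0.439% lower. Il17a, a main inducer of keratinocyte defensins, had 2, 0, 0 and 0 counts with A. faecalis, 64.7, 76.5, 65.1 and 45.1 counts with S. aureus, and 0, 15.8, 2 and 7.8 counts with vehicle. Scaled by library size, the summed counts with S. aureus were 11.7 times those with vehicle (exact 95% interval 7.80 to 18.3), and those with A. faecalis were 0.00641 times those with S. aureus (0.000771 to 0.0234); the intervals cover counting error only. Il22 was at the limit of detection, with 0, 0, 1 and 2 counts with A. faecalis, 8, 12.5, 3 and 2.9 with S. aureus, and 1, 2, 0 and 0 with vehicle. Called or not, 30 of the 37 had log2 fold changes below 0 and 7 above 0 with A. faecalis against S. aureus. Tnf and Il1f9 had their highest means with A. faecalis. Tnf had 115.2 ± 54.6 CPM with A. faecalis, 36.3 ± 15.7 with S. aureus and 75.8 ± 52.6 with vehicle. Il1f9 had 229.1 ± 110.1, 105.9 ± 11.8 and 132.6 ± 83.3 CPM in the same order (SD, n = 4 each).

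The epidermal growth factor receptor ligands Hbegf and Tgfa and the cytokine Osm, an activator of STAT3 in keratinocytes, were among the clearest. Hbegf had 9.56 ± 0.939 CPM with A. faecalis and 31.5 ± 7.07 CPM with S. aureus (SD, n = 4 each; log2 -1.72, SE 0.16; edgeR adjusted p = 0.000592), Tgfa 9.94 ± 2.67 CPM with A. faecalis and 32.3 ± 8.44 CPM with S. aureus (log2 -1.70, SE 0.22, adjusted p = 0.00131), and Areg 3.88 ± 0.305 CPM with A. faecalis and 9.15 ± 1.43 CPM with S. aureus (log2 -1.23, SE 0.17, adjusted p = 0.00147). Osm had 12.9 ± 3.12 CPM with A. faecalis, 124.6 ± 36.6 CPM in S. aureus wounds and 25.7 ± 17.3 CPM in vehicle wounds, and was called both with A. faecalis against S. aureus (log2 -3.27, SE 0.46, adjusted p = 0.00179) and with S. aureus against vehicle (log2 2.28, SE 0.44, adjusted p = 0.0162). Il17ra, the receptor of interleukin 17A, was called higher with S. aureus, at 59.7 ± 4.57 CPM, than with vehicle, at 30.7 ± 9.61 CPM (log2 0.96, SE 0.18, adjusted p = 0.0159), as was the tumour necrosis factor receptor Tnfrsf1a (log2 0.39, SE 0.07, adjusted p = 0.0127). Il20, a cytokine of the interleukin 10 family that acts on keratinocytes, had 0 to 6.5 counts with A. faecalis, 28.4 to 41.1 with S. aureus and 1.7 to 5.2 with vehicle, and its receptor chain Il20ra was lower with S. aureus than with vehicle (log2 -1.54, SE 0.35, adjusted p = 0.0267).

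**Figure D5:**
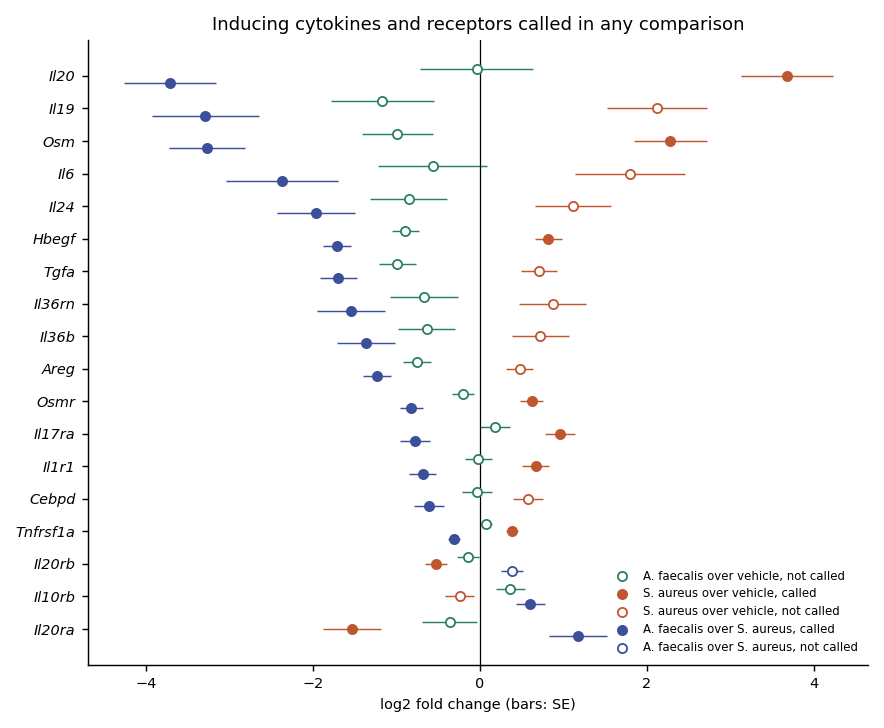
Fitted log2 fold changes, with bars of 1 SE, of the 18 inducing cytokines, receptors and signalling genes called in any comparison and plotted; filled points had an edgeR adjusted p under 0.05. The A. faecalis over S. aureus points of 15 genes, from Il20 to Tnfrsf1a, are filled and below 0; Il17a, also called, is left out because it had 2 counts in all A. faecalis libraries.

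Among 27 other antimicrobial proteins of skin, 23 of them tested, 8 were lower and none higher with A. faecalis than with S. aureus, 4 were higher with S. aureus than with vehicle, and none was called with A. faecalis against vehicle by edgeR (5 lower and 2 higher at an unadjusted p under 0.05, 1 lower by DESeq2, none by limma-voom). Of all genes tested, 7.62% were called lower and 5.06% higher with A. faecalis than with S. aureus, and 3.87% higher with S. aureus than with vehicle. With A. faecalis against vehicle, 4.5% were lower and 3.18% higher at an unadjusted p under 0.05, and DESeq2 called 0.439% lower. Called or not, 15 of the 23 had log2 fold changes below 0 and 8 above 0 with A. faecalis against S. aureus. Against vehicle, 13 were below 0 and 10 above 0 with A. faecalis. Adm, adrenomedullin, a peptide with antibacterial activity, was higher with S. aureus, at 36.5 ± 3.51 CPM, than with vehicle, at 22.5 ± 4.83 CPM (log2 0.70, SE 0.16, adjusted p = 0.03). Pglyrp4, a peptidoglycan recognition protein of epithelia, had 2.66 ± 0.696 CPM with A. faecalis, 11.5 ± 2.51 CPM in S. aureus wounds and 4.78 ± 2.07 CPM in vehicle wounds, and was called in both comparisons with S. aureus (A. faecalis against S. aureus log2 -2.12, SE 0.34, adjusted p = 0.00322; S. aureus against vehicle log2 1.27, SE 0.33, adjusted p = 0.0422). Lpo, lactoperoxidase, had 0.189 ± 0.0826 CPM with A. faecalis and 3.18 ± 1.06 CPM with S. aureus (log2 -4.10, SE 0.62, adjusted p = 0.00255). Ccl20, the chemokine that shares the receptor Ccr6 with beta-defensins, had 20.7 to 27.1 counts with A. faecalis, 31.8 to 62 counts with S. aureus and 17.7 to 33.4 counts with vehicle. It was lower with A. faecalis than with S. aureus (log2 -1.37, SE 0.27, adjusted p = 0.00799) and higher with S. aureus than with vehicle (log2 1.31, SE 0.27, adjusted p = 0.0207). The neutrophil proteins S100a8, S100a9 and Ngp were among the 8 lower genes and also stand among the neutrophil markers. Other genes of the list had means in another order. Lcn2 had 2025 ± 1110 CPM with A. faecalis, 1757 ± 349 with S. aureus and 1303 ± 1230 with vehicle. Camp, also a neutrophil marker, had 1.33 ± 0.705 CPM with A. faecalis, 2.25 ± 1.61 with S. aureus and 0.411 ± 0.266 with vehicle (SD, n = 4 each).

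The proteins that these antimicrobials act on or through had edgeR calls only in the comparison of A. faecalis with S. aureus. Of 14 receptors, target proteases and related genes, none was called against vehicle by edgeR with S. aureus (3 lower and 2 higher at an unadjusted p under 0.05, 3 lower by DESeq2) or with A. faecalis (2 lower and none higher at an unadjusted p under 0.05, none by DESeq2), and limma-voom called none in either. Over all genes tested, the unadjusted shares were 14.8% lower and 12.3% higher with S. aureus, and 4.5% and 3.18% with A. faecalis. DESeq2 called 7.22% of genes tested lower with S. aureus. With A. faecalis against S. aureus 1 was lower and 1 higher, against 7.62% and 5.06% of genes tested: Klk7, a protease of the stratum corneum, was lower (52.6 ± 18.6 against 125.7 ± 42.8 CPM; log2 -1.26, SE 0.30; adjusted p = 0.0192), and Grn, whose protein Slpi protects from cleavage, was higher (781.4 ± 62.6 against 633.2 ± 32.6 CPM; log2 0.30, SE 0.08; adjusted p = 0.0337; SD, n = 4 each). The receptor Ccr6 itself had 6 to 20.1 counts with A. faecalis, 1.3 to 16.4 with S. aureus and 16.2 to 35.2 with vehicle. Elane, neutrophil elastase, which Slpi inhibits, had 7.9 to 8 counts with A. faecalis, 7 to 31.3 with S. aureus and 3.9 to 14.1 with vehicle. Of 18 sensors of microbes, 2 were higher and 1 lower with A. faecalis than with S. aureus, against 5.06% and 7.62% of genes tested. They were Tlr9, a sensor of bacterial DNA, at 64.8 ± 17.6 against 24.1 ± 5.49 CPM, Ly96, the partner of Tlr4, at 12.4 ± 2.41 against 7.29 ± 0.768 CPM, and Clec7a, a receptor for fungal glucan, at 42.8 ± 11.1 against 105.7 ± 25.1 CPM. Clec7a was also higher with S. aureus than with vehicle, which had 58.6 ± 14.8 CPM (edgeR adjusted p = 0.0491). It was the only 1 of the 18 called there, against 3.87% of genes tested called higher.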

How the data were processed

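RNA of wounded skin from 12 mice, 3 groups of 4, was sequenced as stranded total-RNA libraries, per the labels' protocols. The authors deposited 1 table of estimated counts per gene; per the submitters' processing notes, kallisto 0.48.0, FastQC 0.12.1, R 4.1.3, DESeq2 1.34.0 and build GRCm39 were used, with no role given. Gene-level summing of transcripts and any use of strand are not given in the sources used. Kallisto divides reads between similar transcripts, which makes close paralogs uncertain. An entry without a gene name, 0.00909% to 0.0151% of a library, was left out.

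Estimated counts were rounded to whole numbers, scaled by TMM and filtered with filterByExpr (minimum count 10, minimum total 15). All 12 libraries entered 1 fit of edgeR 4.0.16 in R 4.3.3 with a mean per group. Its robust quasi-likelihood F test was used two-sidedly, with Benjamini-Hochberg adjustment over 18218 genes and calls under 0.05. CPM uses TMM-scaled library sizes, and centred log2 CPM a prior count of 2. DESeq2 1.42.0, limma 3.58.1 (voom), other scalings and filters, a replicate block, summed paralogs and fits without 1 library were alternatives. Scaling to basal keratinocyte markers, leaving out vehicle library 3 with S. aureus library 2, and the paralog ratios were chosen after seeing the data. The test script was tested on simulated data. Same-numbered libraries of different groups correlated at -0.21 to 0.182, above 0.1 in 3 of 12 pairs, so the numbers were not taken to pair mice.

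Named genes were the 10 genes, their paralogs with counts, from each other list up to 4 called genes per comparison by smallest adjusted p averaging at least 1 CPM, and for each of the 10 the 3 genes nearest in pattern with such a mean; those of Lyz1 are not reported here. Il17a, Il20, Il20ra, Il22, Tnf, Il1f9, Ccl20, Ccr6, Elane, Lcn2 and Camp were named outside this rule, after their values were seen. The 10 genes and the 19 lists (252 symbols, 250 found, 5 under an older name) were chosen with earlier results of these data known. Promoter sequences are RefSeq's, build GRCm38.p6; transcripts for shared words of 31 bases and lengths are of GRCm38, another build than the authors'. Intervals for sums of counts are exact 95% intervals of counting error only. Each library is read as 1 mouse from the series' design text.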

Additional observations from a re-analysis of the deposited data

Results flagged for a closer look

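A library far from the others of its group was looked for in 30 groups of 4, the 10 genes in each of 3 groups, and chance alone marks about 1 in 20 groups. It was found in 2. Defb3 had 5.55 CPM in A. faecalis library 4, against 0.778 to 1.39 CPM in the other A. faecalis libraries, a gap of 0.871 of the group's range. Reg3g had 0.789 CPM in vehicle library 3, against 2.78 to 3.12 CPM in the other vehicle libraries, a gap of 0.852 of the range. The same vehicle library had the lowest Defb3 and Slpi of the vehicle group and the highest adipocyte marker sum of the 12 libraries.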

How the results depend on the processing

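With A. faecalis against S. aureus, 5 to 7 of the 10 genes were called in the fits that left out 1 library each, and 5 to 8 under all settings tried; of genes tested, 7.13% to 18.8% and 5.32% to 20% were called in the same settings. Against vehicle the count with A. faecalis was 0 under every setting except DESeq2's Wald test, which called 1. With S. aureus against vehicle the count of 2 was the least steady. It was 7 with DESeq2's Wald test, 6 at an adjusted p under 0.1, 4 with a filter of 1 CPM on the mean, 4 with scaling to basal keratinocyte markers, and 1 with only the 2 groups in the fit. It was 1 without vehicle library 3 and S. aureus library 2 together, where Defb4 had an adjusted p of 0.0506, and 1 to 4 in the fits that left out 1 library each. Over all these settings 1.41% to 15.8% of genes tested were called with S. aureus against vehicle. The replicate numbers were shared by the groups, and the labels do not say whether they pair mice. In a check, 3 of 12 libraries correlated best with a library of their own number, which cannot show whether mice were paired. Same-numbered A. faecalis and vehicle libraries correlated at 0.07, 0.182, 0.146 and 0.17. With the replicate block the count with S. aureus against vehicle was 1 (Reg3g adjusted p = 0.065), and the counts were 0 with A. faecalis against vehicle and 6 with A. faecalis against S. aureus.

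The directions of 3 genes, all with A. faecalis against vehicle and none called, turned over. Slpi, at -0.00052, had log2 fold changes of 0.0054 with DESeq2 size factors and with its Wald test, 0.0053 with upper-quartile scaling, 0.54 with limma-voom, 0.0042 with no filter, 0.0027 with the 1 CPM filter, 0.0023 with only the 2 groups, 0.29 with the replicate block and 0.42 with keratinocyte scaling, and -0.35 to 0.87 with 1 library left out. Lyz1 had 0.52 when summed with Lyz2, 0.12 with keratinocyte scaling and -0.56 to 0.13 with 1 library left out, above 0 without vehicle library 2. Wfdc12 had 0.091 with keratinocyte scaling. The Defb3 to Defb6 log2 ratio with A. faecalis against vehicle ranged over -0.78 to 0.21 with 1 library left out. With 1 library left out exact permutation tests of the ratios, 3 libraries against 4, cannot go below p = 0.0571; the difference with S. aureus against vehicle was then 1.69 to 2.69 for Defb3 to Defb6 and -1.59 to -1.11 for Lyz1 to Lyz2. Of 729 alternative values of single genes and ratios, 664 kept direction and call, 26 gained and 16 lost the call, and 23 changed direction; the cause was not tested. After adjustment no ratio was called with or without any library, so none could lose a call. With 4 mice a group and counts of 6 to 20.2 for Defb4 with A. faecalis, counting error limits the weakest genes.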

Other observations

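Beyond the keratinocyte and neutrophil genes, several macrophage markers ran the opposite way to the defensins. With A. faecalis against S. aureus, 6 of 14 monocyte and macrophage markers were higher and none lower, against 5.06% and 7.62% of genes tested. The fold changes of 3 were below 0, none called: Ly6c2, a marker of inflammatory monocytes, had 58.3 ± 19.5 CPM with A. faecalis, 116.4 ± 47.7 CPM in S. aureus wounds and 55.3 ± 19.8 CPM in vehicle wounds (SD, n = 4 each; edgeR adjusted p = 0.074 with A. faecalis against S. aureus), and Cd14 and Itgam were the others. Emr1, the macrophage surface protein F4/80, had 329.0 ± 92.9 CPM with A. faecalis, 122.5 ± 17.4 CPM in S. aureus wounds and 258.0 ± 75.4 CPM in vehicle wounds, and Csf1r, the receptor of the growth factor that macrophages need, had 828.5 ± 170.6 CPM with A. faecalis and 421.5 ± 24.2 CPM with S. aureus (SD, n = 4 each). Both were called by edgeR's quasi-likelihood test with A. faecalis against S. aureus (log2 1.43, SE 0.24, adjusted p = 0.00359 for Emr1; log2 0.97, SE 0.17, adjusted p = 0.00415 for Csf1r). Emr1 was also lower with S. aureus than with vehicle (log2 -1.07, SE 0.23, adjusted p = 0.0244). Lyz2 stands in this list, and the summed markers ranged over 6477 to 9821 CPM with A. faecalis, 5559 to 6900 CPM with S. aureus and 5033 to 8761 CPM with vehicle.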
